A study of Mus musculus with 2 samples.

Results

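Immediate early genes are switched on within minutes of a stimulus, without new protein synthesis, and they were followed here in the colon through 10 genes: Fos, Fosb, Jun, Junb, Jund, Atf3, Egr1, Ier2, Dusp1 and Zfp36. The genes were taken by symbol and matched to Ensembl gene identifiers, which gave all 10 of them among the 43346 Ensembl genes of the tables. All 10 had reads in both libraries and a mean of at least 10 expected counts, the minimum for the test used.

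Polyadenylated RNA of the sigmoid colon, the distal bend of the large intestine, was sequenced from 1 female C57BL/6J mouse aged 10 weeks. The study holds 1 group, 1 animal and 2 technical libraries of biological replicate 1. Per the labels, the second library, taken here as library 2, was made in 2015. No treatment, genotype or second animal was sampled, so the values below compare libraries of the same mouse and not conditions, and ± is the SD over the 2 libraries.

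The proteins fall into 3 roles. Fos and Fosb pair with Jun, Junb or Jund through leucine zippers to form AP-1, a transcription factor that binds target promoters and enhancers; Atf3 is a stress-induced protein of the same zipper class, and Egr1 is a zinc-finger transcription factor. MAP kinase signalling, through serum response factor and CREB, is the classical route to their transcription, and their mRNAs are short-lived. Dusp1 removes phosphate from MAP kinases, and Zfp36 (tristetraprolin) binds AU-rich elements of mRNAs and speeds their decay, so both act as brakes; in the gut these genes respond to growth factors, injury, microbial signals and also to handling of the tissue.

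The gene tables summed to 20681574 expected counts for library 2 and to 25843064 for library 1. Mitochondrially encoded genes took 5.59% of the counts in library 2 (Wilson 95% interval 5.58 to 5.60) and 24.1% in library 1 (24.0 to 24.1), and nuclear protein-coding genes took 75.3% of the TPM in library 2 and 31.3% in library 1. TPM is a length-corrected share of the library, so a larger mitochondrial share leaves less TPM for nuclear genes. The tissue label was checked by markers. All 6 colon epithelial markers were present, at a summed 12789 TPM in library 2 and 4055 TPM in library 1. Of markers not expected in colon, the heart gene Myh6 had 0 counts in both, while the heart gene Tnnt2 had 9.16 TPM in library 2 and 1.20 TPM in library 1, and the liver gene Ttr had 36.5 TPM in library 2 and 3.39 TPM in library 1; Tnnt2 and Ttr were called higher in library 2. The 4 smooth muscle markers (Acta2, Myh11, Des, Actg2) summed to 3148 TPM in library 2 and 199 TPM in library 1. All 4 were called higher in library 2. Calls follow the test defined below, by which 36.9% of all genes tested were called higher. With the trend on GC content described below taken off, 3 of the 4 stayed higher, and Myh11 (log2 ratio 0.47) was not called. Ttr (3.03) then stayed higher, and Tnnt2 (-0.39) was not called. Of the other marker lists, the 3 leukocyte genes summed to 793 TPM in library 2 and 121 TPM in library 1, the 4 fibroblast genes to 683 TPM in library 2 and 541 TPM in library 1, and the 3 endothelial genes to 43.4 TPM in library 2 and 9.90 TPM in library 1. The 3 enteric neuron genes summed to 26.4 TPM in library 2 and 6.77 TPM in library 1. When TPM was recomputed over nuclear protein-coding genes alone, the fibroblast sum turned, to 907 in library 2 and 1727 in library 1. The epithelial sum was then 16975 in library 2 and 12942 in library 1, and the other marker lists also stayed higher in library 2. The part of these cell types in the differences described below was not tested. In bulk tissue, fewer cells of a type and less RNA per cell cannot be told apart.

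The members of the Jun family share much of their zipper region in protein and differ in its base composition. The stretch compared here holds part of their DNA contact and dimer contact. It runs from the conserved asparagine of the basic region through the 4 heptad leucines that were searched for. This stretch is 40 codons long in the Jun and Fos proteins. It is shown for 5 genes as spliced coding sequence from GENCODE M21 on GRCm38, the assembly also called mm10, with the 4 leucine codons in capitals.
Jun: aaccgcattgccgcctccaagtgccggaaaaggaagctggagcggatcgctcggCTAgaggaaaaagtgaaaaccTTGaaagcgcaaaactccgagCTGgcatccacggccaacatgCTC
Junb: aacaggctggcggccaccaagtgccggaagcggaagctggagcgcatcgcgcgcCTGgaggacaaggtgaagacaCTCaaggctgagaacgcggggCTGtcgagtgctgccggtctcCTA
Jund: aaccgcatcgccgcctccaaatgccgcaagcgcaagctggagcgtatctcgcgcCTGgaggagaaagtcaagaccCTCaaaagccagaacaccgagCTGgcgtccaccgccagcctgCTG
Fos: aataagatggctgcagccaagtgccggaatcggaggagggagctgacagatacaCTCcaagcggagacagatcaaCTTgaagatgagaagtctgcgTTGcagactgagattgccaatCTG
Fosb: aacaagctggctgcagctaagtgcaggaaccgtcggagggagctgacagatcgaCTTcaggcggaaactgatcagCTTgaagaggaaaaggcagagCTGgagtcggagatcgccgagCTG
The 3 Jun stretches lie in the single exon of each gene, at chr4:95050360-95050479 on the minus strand for Jun, chr8:84977488-84977607 on the minus strand for Junb and chr8:70699871-70699990 on the plus strand for Jund. The Fos (codons 147 to 186) and Fosb (codons 165 to 204) stretches are each joined across an intron. Jun and Jund encode the same residue at 35 of the 40 positions, and their bases differ at 26 positions, 18 of them the third base of a codon. Jun and Junb share 30 residues and differ at 38 bases, 23 of them the third base. Fos and Fosb share 32 residues and differ at 26 bases. The third base was G or C in 90% of the codons of this stretch in Jund, 85% in Junb, 75% in Jun, 62.5% in Fosb and 55% in Fos.

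Promoter sequence was matched for 8 of the 10 genes in the RefSeq table of GRCm38.p6; Egr1 and Ier2 had no entry. The 250 bases upstream of the start are shown for Fos, Dusp1 and Zfp36, which hold motifs of the classical inducible route, and for Junb, the gene with the largest gap between the libraries. Capitals mark the CRE core TGACG or its reverse complement, the full CRE TGACGTCA, a CArG box or the TATA box TATAA.
Fos, chr12:85473640-85473889, plus strand: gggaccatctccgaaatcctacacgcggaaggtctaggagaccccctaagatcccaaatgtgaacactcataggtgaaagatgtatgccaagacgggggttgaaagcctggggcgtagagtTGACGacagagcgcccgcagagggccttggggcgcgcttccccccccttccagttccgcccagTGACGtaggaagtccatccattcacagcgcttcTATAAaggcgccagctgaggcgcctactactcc
Junb, chr8:84978749-84978998, minus strand: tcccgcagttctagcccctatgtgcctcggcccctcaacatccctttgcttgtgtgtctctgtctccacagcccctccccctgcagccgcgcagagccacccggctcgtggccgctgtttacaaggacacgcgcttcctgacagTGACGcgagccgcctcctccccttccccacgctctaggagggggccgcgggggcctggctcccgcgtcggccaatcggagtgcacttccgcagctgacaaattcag
Dusp1, chr17:26508473-26508722, minus strand: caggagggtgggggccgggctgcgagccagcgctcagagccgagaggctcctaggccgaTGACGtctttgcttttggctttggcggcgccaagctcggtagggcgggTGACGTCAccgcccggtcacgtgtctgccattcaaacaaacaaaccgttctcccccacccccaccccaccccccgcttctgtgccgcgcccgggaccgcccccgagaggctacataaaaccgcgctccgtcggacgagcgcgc
Zfp36, chr7:28379229-28379478, minus strand: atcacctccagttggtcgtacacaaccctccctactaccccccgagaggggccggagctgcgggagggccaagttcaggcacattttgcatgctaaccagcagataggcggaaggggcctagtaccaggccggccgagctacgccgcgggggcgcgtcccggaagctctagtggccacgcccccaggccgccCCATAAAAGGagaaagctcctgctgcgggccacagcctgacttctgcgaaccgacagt
The full CRE stood in 1 of the 8 promoters, 143 to 136 bases upstream of the Dusp1 start, and in 1.55% of all 32851 promoters of the table. The core TGACG, which is part of the full CRE, stood in 5 of the 8 (Fos, Fosb, Junb, Atf3 and Dusp1) and in 17.8% of all promoters. A CArG box, the serum response factor motif, was found in Zfp36 alone of the 8, 58 to 49 bases upstream of its RefSeq start, and in 1.47% of all promoters. TATAA, searched on the gene's strand only while the other motifs were searched on both, stood in Fos 33 to 29 bases upstream and in 16.0% of all promoters. The GC box GGGCGG was in 6 of the 8 and in 32.7% of all, and the AP-1 site TGANTCA was in none of the 8 and in 6.75% of all. These are matches of letters in a window of 250 bases, and motifs further upstream, in Fos or any other gene, were not searched. The starts are those of RefSeq and can differ from those of GENCODE M21. The Zfp36 window lies inside the gene as GENCODE M21 annotates it (chr7:28376784-28380253). The Jund window (chr8:70697489-70697738) ends well before the GENCODE M21 start of Jund at 70698949.

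AU-rich words of the 3′ UTR, the elements that Zfp36 binds, were common in the set. The pentamer ATTTA stood in 9 of the 10 annotated 3′ UTRs, Ier2 being the exception, and in 66.8% of 14120 genes with a 3′ UTR. The longer word TATTTAT stood in 7 of the 10 (not in Junb, Egr1 or Ier2) and in 28.0% of all. The members' median was 2.89 ATTTA per kb of UTR, against 1.24 over all genes. A window of 30 bases is shown for Fos, which has 4 ATTTA in all, and for both brakes, since Dusp1 (4 ATTTA) and Zfp36 (3 ATTTA) carry the element too. Capitals mark ATTTA, which overlaps itself in Fos and Dusp1.
Fos, chr12:85477103-85477132, plus strand: tgttttcaATTTATTTAttaagatggattc
Dusp1, chr17:26506158-26506187, minus strand: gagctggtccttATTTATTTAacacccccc
Zfp36, chr7:28376965-28376994, minus strand: agtgggccctttATTTAtgacgactttatt

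Together the 10 genes made up 652 TPM in library 2 and 127 TPM in library 1, a mean of 389.5 ± 371 TPM. When TPM was recomputed over nuclear protein-coding genes alone, the sums were 865 in library 2 and 406 in library 1, so the 5.13-fold gap in deposited TPM became 2.13-fold. Every gene was higher in library 2 in deposited TPM, by 2.64-fold for Fos at the least and by 152-fold for Junb at the most. A higher TPM in library 2 was common. The median log2 ratio of deposited TPM was 1.18 over all 15711 genes tested, against 2.28 for the 10 members and 1.40 for Fos.

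**Figure D1:**
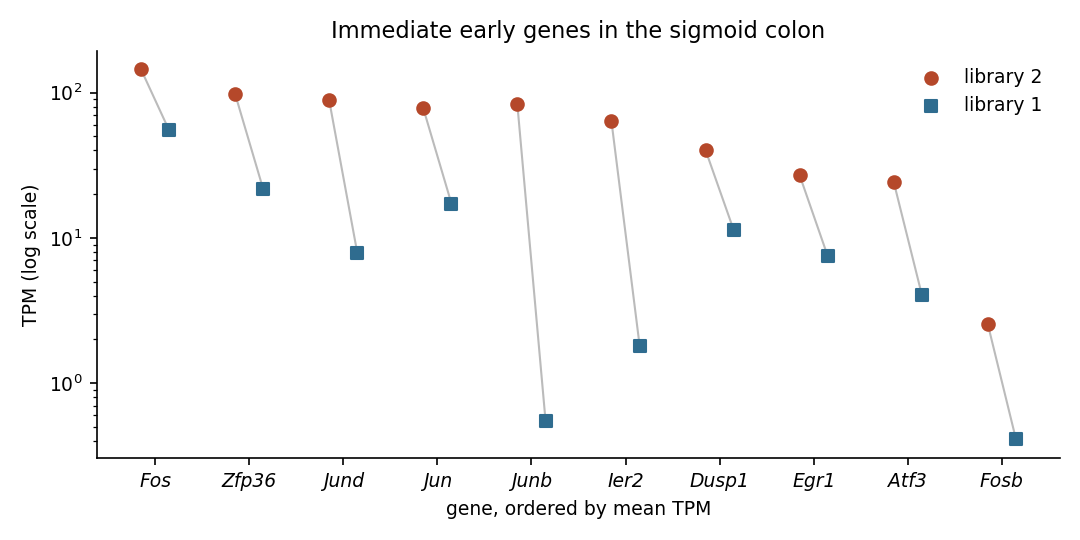
TPM of each gene (log scale) in library 2 (circles) and library 1 (squares), ordered by the mean of both; a line joins the libraries of a gene. Fos is highest in both, at 145 TPM in library 2 and 54.9 TPM in library 1, and the longest line is that of Junb, at 83.4 TPM in library 2 and 0.55 TPM in library 1.

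Fos (ENSMUSG00000021250.9, chr12:85473890-85477273, plus strand, 4 exons) was the most abundant member in both libraries. It had 145 TPM in library 2 and 54.9 TPM in library 1, a mean of 99.9 ± 63.6 TPM. That placed it at rank 780 in library 2 and rank 1156 in library 1 of 21461 nuclear protein-coding genes, which is the top 3.63% in library 2 and the top 5.39% in library 1. Fosb (ENSMUSG00000003545.2, chr7:19302696-19310051, minus strand, 4 exons), its paralogue, was the least abundant, at 2.55 TPM in library 2 and 0.41 TPM in library 1. Its 131 counts in library 2 and 35 counts in library 1 (exact Poisson 95% interval 24.4 to 48.7) make its ratio one of the least precise. With Fosl1 and Fosl2, the other Fos proteins, the Fos family summed to 225 TPM in library 2 and 91.8 TPM in library 1. Fos held 64.5% of that sum in library 2 and 59.8% in library 1. Fosl2 held 34.2% in library 2 and 39.7% in library 1, and Fosb held 1.13% in library 2 and 0.447% in library 1, so the order within the Fos family was the same in both.

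The order within the Jun family was not the same. The 3 genes summed to 251 TPM in library 2 and 25.6 TPM in library 1. Jun (ENSMUSG00000052684.4, chr4:95049034-95052222, minus strand) had 78.25 TPM in library 2 and 17.23 TPM in library 1. Its counts were 3384 in library 2 and 1245 in library 1. Junb (ENSMUSG00000052837.5, transcript at chr8:84976910-84978718 in GENCODE M21, minus strand) had 83.4 TPM in library 2 and 0.55 TPM in library 1. Junb counts were 1991 in library 2 (exact Poisson interval 1904.5 to 2080) and 22 in library 1 (13.8 to 33.3), and its rank was 1509 in library 2 and 11346 in library 1. Jund (ENSMUSG00000071076.5, chr8:70698949-70700616, plus strand), the Jun protein known for steady expression in many tissues, had 88.8 TPM in library 2 and 7.84 TPM in library 1. The 3 genes held near-equal shares of the family in library 2, at 31.2% for Jun, 33.3% for Junb and 35.5% for Jund. In library 1 the shares were 67.3% for Jun, 2.15% for Junb and 30.6% for Jund.

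Atf3 (ENSMUSG00000026628.9, chr1:191170296-191218039, minus strand, 4 exons) had 24.3 TPM in library 2 and 4.04 TPM in library 1, a mean of 14.2 ± 14.3 TPM. Egr1 (ENSMUSG00000038418.7, chr18:34859823-34864984, plus strand, 3 exons) had 27.1 TPM in library 2 and 7.46 TPM in library 1. Ier2 (ENSMUSG00000053560.4, chr8:84661331-84662852, minus strand, 1 exon), a nuclear protein induced by growth factors, had 63.9 TPM in library 2 and 1.81 TPM in library 1. The count of Ier2 was 1233 in library 2 and 58 in library 1 (exact Poisson interval 44.0 to 75.0), so its gap was second in size to that of Junb.

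Both brakes had smaller gaps than Junb, Ier2 and Jund, 3.56-fold in TPM for Dusp1 and 4.56-fold for Zfp36. The gaps of Fos, Egr1, Jun, Atf3 and Fosb were smaller than those of Junb, Ier2 and Jund too, from 2.64-fold for Fos to 6.22-fold for Fosb. Dusp1 (ENSMUSG00000024190.6, deposited transcripts within chr17:26505590-26508519 in GENCODE M21, minus strand) had 40.3 TPM in library 2 and 11.3 TPM in library 1, a mean of 25.8 ± 20.5 TPM. Zfp36 (ENSMUSG00000044786.5, chr7:28376784-28380253, minus strand, 2 exons) had 98.3 TPM in library 2 and 21.6 TPM in library 1, a mean of 59.9 ± 54.2 TPM, and stood next to Fos in the order of levels in both libraries.

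By mean TPM the order was Fos, Zfp36, Jund, Jun, Junb, Ier2, Dusp1, Egr1, Atf3 and Fosb. None of the 9 neighbouring pairs in that order differed by more than the larger SD of the pair. Of the 45 possible pairs, 35 had the same order in both libraries and 10 changed places, and each of those 10 involved Junb, Jund or Ier2. Over the 10 genes, Spearman's rho between the libraries was 0.67, a description over genes that share libraries. Among the 3 nuclear protein-coding genes nearest to Fos in level over both libraries were Bcap31 (142 TPM in library 2, 55.4 TPM in library 1) and Lima1 (149 TPM in library 2, 54.9 TPM in library 1), at Euclidean distances of 0.0312 and 0.0379 in log2(TPM + 1), a likeness over 2 libraries only.

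Counts were next compared between the libraries after TMM scaling, which sets the bulk of genes level between them. A gene was called at an adjusted p under 0.05 in a two-sided exact binomial test (Benjamini-Hochberg over 15711 genes) and a difference of at least 2-fold; the test covers counting error between these libraries only. By it 7 of the 10 genes were higher in library 2, none was lower, and Fos, Egr1 and Dusp1 were not called. Of all genes tested, 36.9% were called higher and 28.1% lower, so a call was common here, and calls on 7 of 10 members stand against that background. The median log2 ratio of the 10 was 1.24, against 0.12 for all genes tested, and all 10 ratios were above 0.

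Junb had the largest ratio, 6.04 ± 0.31 on the log2 scale (± counting SE), or 65.9-fold. Ier2 followed at 3.97 ± 0.19, or 15.7-fold, and Jund at 2.33 ± 0.07, or 5.03-fold. These 3 are the genes with the highest transcript GC content of the set, at 62.6% for Junb, 60.9% for Ier2 and 67.1% for Jund. Atf3 (1.48 ± 0.13, 2.78-fold) and Fosb (1.46 ± 0.27, 2.76-fold; exact binomial adjusted p = 1.28e-08) were also called. Zfp36 at 1.02 ± 0.06 (2.03-fold) and Jun at 1.01 ± 0.05 (2.02-fold) lay just past the 2-fold limit, and with DESeq2 size factors both fell just under it, at 0.97 and 0.96, leaving 5 genes called. Egr1 (0.69 ± 0.08), Dusp1 (0.66 ± 0.08) and Fos (0.15 ± 0.04; exact binomial adjusted p = 9.38e-05) differed by more than counting error and by less than 2-fold. Fos, which was 2.64-fold higher in library 2 in TPM, was thus 1.11-fold higher in scaled counts.

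**Figure D2:**
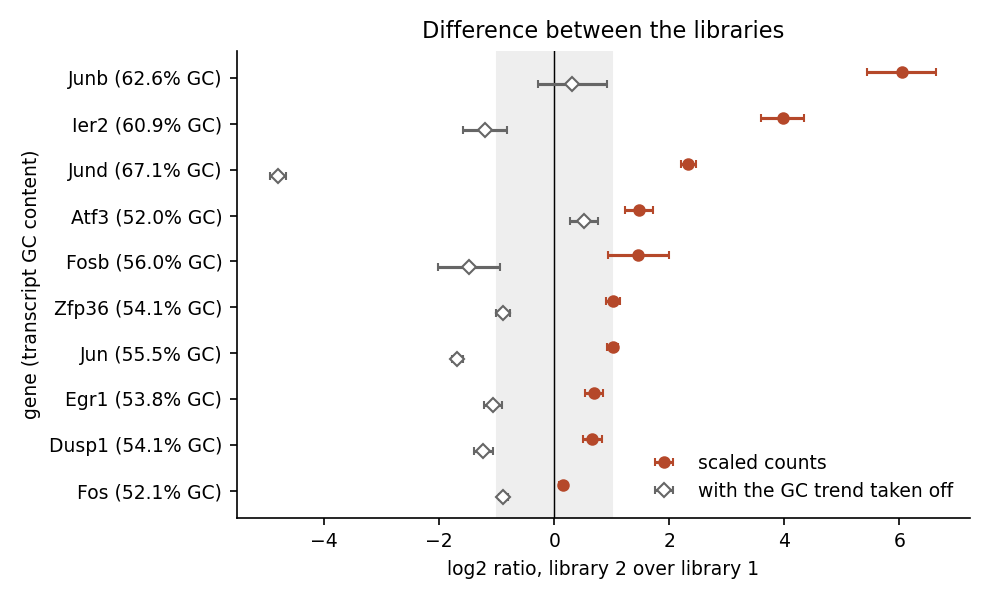
Log2 ratio of library 2 over library 1 for each gene (filled circles, scaled counts; open diamonds, with the GC trend taken off), with bars of 95% for counting error and the span under 2-fold in grey. All filled circles lie above 0, Junb highest at 6.04; 8 of the 10 diamonds lie below 0, Jund lowest at -4.80.

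The ratio between these libraries ran with GC content over the whole transcriptome. Among 2944 genes of 40 to 45% GC the median log2 ratio was -1.57, among 4172 genes of 50 to 55% GC it was 1.14, among 2989 genes of 55 to 60% GC it was 3.52, and among 591 genes above 60% GC it was 5.44, with 95.8% of them called higher in library 2. The median GC content was 54.8% for the 10 members and 49.9% for all genes tested, and the lowest of the members was Atf3 at 52.0%. Across the 10, GC content and ratio had Spearman's rho 0.68 and Pearson's r 0.70, again a description over genes of the same libraries. Set against genes within 1 percentage point of their own GC content, 8 of the 10 members had a ratio below the median of those genes, and Junb and Atf3 had one above it. Fos, at 0.15, compares with a median of 1.03 over 1652 genes of like GC, Jun, at 1.01, with 2.66 over 1565 genes, and Ier2, at 3.97, with 5.37 over 404 genes. Junb, at 6.04, compares with 5.50 over 174 genes.

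**Figure D3:**
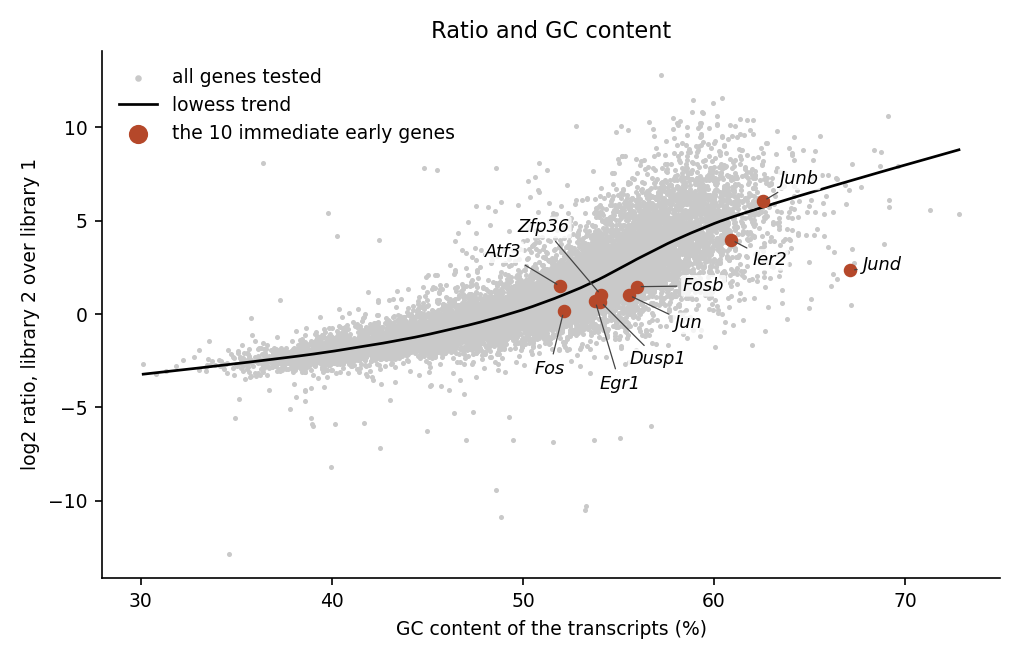
Log2 ratio of library 2 over library 1 against the GC content of a gene's transcripts (%), for all genes tested (grey), their lowess trend (line) and the 10 immediate early genes (red). The 10 lie on the GC-rich side, from 52.0 to 67.1%, and only Junb and Atf3 lie above the line.

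With the lowess trend on transcript GC taken off, the calls turned: none of the 10 was higher in library 2, 6 were lower (Fosb, Jun, Jund, Egr1, Ier2 and Dusp1) and 4 were not called (Fos, Junb, Atf3 and Zfp36). Of all genes tested, 12.3% were then called higher and 11.2% lower. The members' median was -1.13, against -0.01 for all genes. Junb, with the largest ratio before, was at 0.32 (exact binomial adjusted p = 0.391). Jund, at 2.33 before, was at -4.80 on the log2 scale, but only 16 genes lie within 1 percentage point of its GC content. The median ratio of those 16 genes was 4.47, below the trend value of 7.13 that was taken off for Jund. Its annotated transcript here has 1668 bases where the deposited tables give 2878. Without Jund, 5 of the other 9 were lower.

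The GC content of the coding sequence alone, an alternative chosen after seeing these values, gave a different picture. Its relation to the ratio was not monotonic, with a median of 2.48 at 55 to 60% GC, 3.17 at 60 to 65% and 0.84 in the 76 genes above 70%. With that trend taken off, Junb (3.78), Ier2 (1.62), Jund (1.62) and Atf3 (1.58) were called higher, and the other 6 were called lower, at -1.47 for Fosb to -2.62 for Fos. Over all 14364 genes with a coding sequence, 21.7% were then called higher and 20.4% lower. The direction for Jund and Ier2 thus depends on which sequence the GC content is taken over, while Fos, Fosb, Jun, Egr1, Dusp1 and Zfp36 lay below 0 with either trend taken off.

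All 10 genes had gene counts without a decimal part in both libraries, where a read shared out between genes would leave a fraction. Overlapping genes on the other strand were checked, since no source used here gives the strand setting of the counting. The antisense gene Junos overlaps Jun and had 16 counts in library 2 and 8 in library 1, and Gm11175 overlaps Jund and had 2 counts in library 2 and 0 in library 1, all far below the counts of Jun and Jund. Prdx2 (150 TPM in library 2, 8.86 TPM in library 1) and Ergic1 (71.6 TPM in library 2, 14.9 TPM in library 1) meet longer annotated forms of Junb and Dusp1 and do not reach the transcripts that the tables list. Of the rest, Gm24748 within Atf3 and Gm8225 within the long form of Dusp1 had 0 counts in both libraries. The antisense gene Gm44710 overlaps Zfp36 and was not analysed here, so Zfp36 was not checked in this way.

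Transcript shares were available for 4 genes with more than 1 transcript in the tables, and Atf3 alone changed its leading transcript. In library 2 all of its 631 counts were given to Atf3-201, and none to Atf3-203. In library 1 Atf3-201 took 12.9% and Atf3-203 took 87.1%, from 22.6 counts for Atf3-201 and 145.4 for Atf3-203. Atf3-203 is annotated to start 34699 bases upstream of Atf3-201. By the authors' posterior mean, Atf3-203 had 2.71% in library 2 and 62.2% in library 1, a gap in the same direction and smaller. The shares are model estimates from reads that the transcripts largely share, with 168 counts for the gene in library 1.

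The other genes kept their leading transcript. Fos-201, the coding form, had 91.1% in library 2 and 99.6% in library 1, and Fos-203, a processed transcript, had 8.88% in library 2 and 0.43% in library 1. Egr1-202 had 94.8% in library 2 and 95.1% in library 1, the closest match of the 4. In Dusp1, the coding form Dusp1-202 had 62.0% in library 2 and 74.8% in library 1, and forms with a retained intron made up 38.0% in library 2 and 25.2% in library 1.

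**Figure D4:**
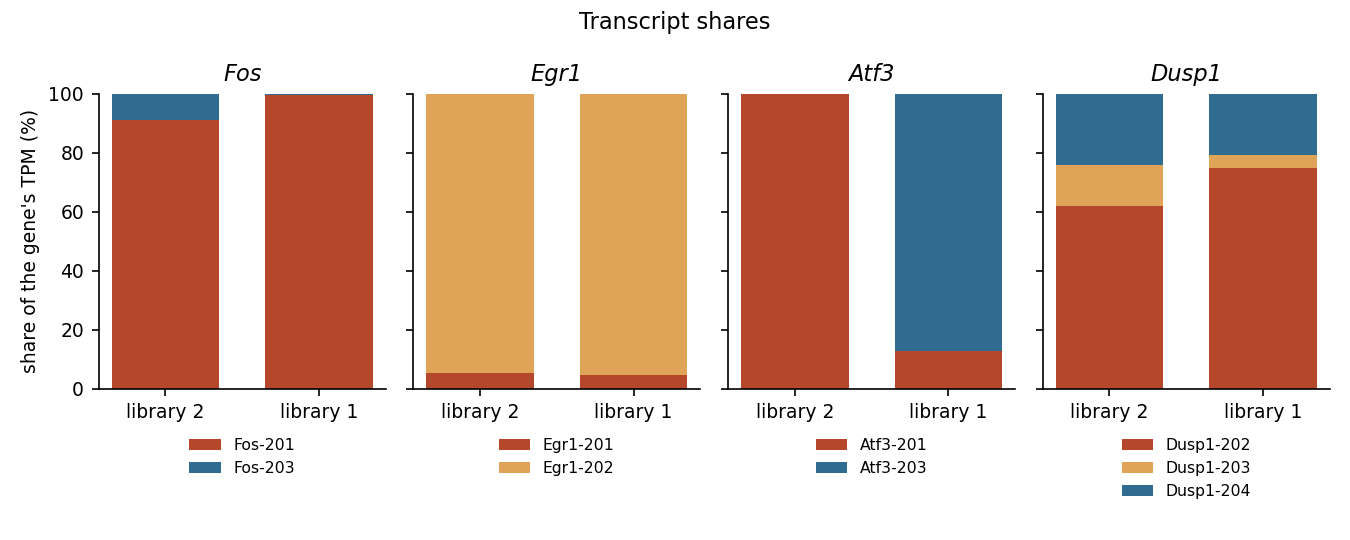
Share of each transcript in the TPM of its gene (%), stacked, with library 2 on the left and library 1 on the right of each panel, for Fos, Egr1, Atf3 and Dusp1. Atf3-203 goes with library 1, at 0% in library 2 and 87.1% in library 1, while Egr1 is nearly the same in both.

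Other genes of the pathway were taken from lists by function, and their counts of calls stand beside 36.9% higher and 28.1% lower for all genes tested, or 12.3% higher and 11.2% lower with the transcript GC trend taken off. Among 15 tested of 17 other AP-1 and ATF subunits, 7 were higher in library 2, 3 were lower and 5 were not called, with a median log2 ratio of 0.96. The higher ones were Batf2 (20.8 TPM in library 2, 0.39 TPM in library 1; log2 ratio 4.70), Jdp2 (3.97), Atf5 (3.17), Maff (1.95), Batf3 (1.93), Mafk (1.59) and Atf4 (110 TPM in library 2, 24.0 TPM in library 1; 1.04), the last a regulator of the amino acid stress response. Atf2, a partner of Jun, was lower, with 21.4 TPM in library 2 and 38.1 TPM in library 1 (-1.74), as were Atf1 (-1.57) and Maf (-1.88). Fosl2, the Fos protein next to Fos in level, had 76.9 TPM in library 2 and 36.5 TPM in library 1 and was not called (-0.09), and neither was Atf7 (-0.91).

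Among 38 tested of 40 other immediate early genes, 14 were higher, 7 lower and 17 not called, with a median of 0.29. Klf4, a factor of differentiated colon epithelium and the most abundant, had 312 TPM in library 2 and 214 TPM in library 1 and was not called (log2 ratio -0.65). The survival gene Mcl1 had 207 TPM in library 2 and 260 TPM in library 1 and was lower (-1.50). Klf6 (99.9 TPM in library 2, 145 TPM in library 1; -1.70) and Btg1, which restrains proliferation (100.03 TPM in library 2, 115 TPM in library 1; -1.38), were lower too. The kinase gene Sgk1 had 145 TPM in library 2 and 72.2 TPM in library 1 and was not called (-0.31). The share of these 38 genes called higher was near the 36.9% of all genes tested. With the transcript GC trend taken off, 1 was higher and 11 were lower, at a median of -0.50.

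Of the routes into the family, 5 of 13 upstream transcription factors and cofactors were higher and 2 lower (median 0.02), and with the GC trend taken off none was higher and 2 were lower. Crtc2, a CREB coactivator, had 35.0 TPM in library 2 and 6.46 TPM in library 1 (2.64), and Creb1 itself had 13.5 TPM in library 2 and 23.4 TPM in library 1 (-2.08). Elk4 (-0.62), Ep300 (-0.45) and Mrtfb (0.02) were not called. Of 18 upstream kinases 7 were higher and 6 lower (median 0.24), and with the GC trend taken off 3 were higher and 2 lower. Mapk3, an ERK gene, had 311 TPM in library 2 and 13.1 TPM in library 1 (4.72). The RSK kinase genes went apart, with Rps6ka1 at 5.53 and Rps6ka3 at -2.17, and Map2k1, the kinase above ERK, was at 0.08.

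Other brakes were also measured. Of 8 other dual-specificity MAP kinase phosphatases tested (of 9), Dusp2 (3.06), Dusp8 (2.99) and Dusp5 (1.07) were higher, all below 6 TPM in both libraries, none was lower, and Dusp6, the most abundant at 37.2 TPM in library 2 and 30.8 TPM in library 1, was not called (-0.90). With the GC trend taken off none of the 8 was higher and 4 were lower, at a median of -1.05. Of the 11 AU-rich element decay genes, 7 were lower and 1 was higher, with a median of -1.48, against 28.1% lower and 36.9% higher over all genes. They include the relatives of Zfp36, namely Zfp36l1 (71.2 TPM in library 2, 105 TPM in library 1; -1.73) and Zfp36l2 (107 TPM in both; -1.18), and Hnrnpd (163 TPM in library 2, 251 TPM in library 1; -1.78), Cnot7 (-2.21) and Cnot6 (-2.19) of the decay machinery. The median GC content of the decay genes was 45.8% and that of the members 54.8%. With the transcript GC trend taken off, the decay genes' median was -0.16 with 4 lower and 1 higher, and that of the other AP-1 and ATF subunits was -1.05 with 8 lower and 2 higher.

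**Figure D5:**
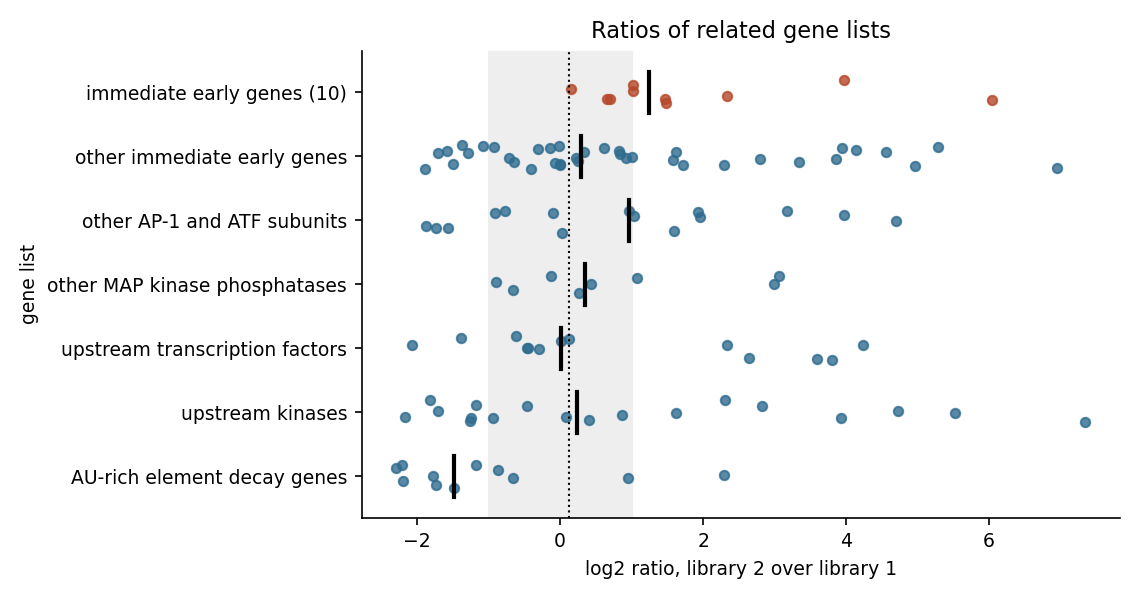
Log2 ratio of library 2 over library 1 for each tested gene of the 10 immediate early genes and of 6 related lists, with the list's median (bar), the median of all genes tested (dotted line, 0.12) and the span under 2-fold in grey. The 10 all lie above 0, at a median of 1.24, the other lists spread to both sides, and the decay genes centre on -1.48.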

How the data were processed

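Per the text files beside them, the deposited gene and transcript tables use mm10 and GENCODE M4. The aligner, the quantifier and its strandedness were not given in the sources used here. Per the file headers, the authors deposited expected counts (estimated counts that share out ambiguous reads), TPM, a posterior mean TPM and, for transcripts, the percent share of each in its gene. The members, the related lists and the tests were chosen with earlier results of these data known.

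Expected counts were rounded to whole numbers and compared by a two-sided exact binomial test given TMM effective sizes (R 4.3.3 with edgeR 4.0.16; the size of library 2 was 1.35 times that of library 1), with a prior count of 0.5 in ratios and Benjamini-Hochberg adjustment. With 1 library a side, edgeR's quasi-likelihood test has no residual degrees of freedom. The procedure was tested on simulated counts that held counting error and known fold changes only. Those counts had no GC trend, so that test cannot judge the calls on these libraries, where the ratio ran with GC content. DESeq2 1.42.0, other scalings, filters and prior counts, and lowess trends (fraction 0.2; statsmodels 0.14.6, Python 3.11.15) on GC and length were alternatives. Symbols matched all 147 listed genes. Named are the members, up to 5 genes of highest mean TPM per list, the called AP-1, ATF and phosphatase genes, the 3 genes nearest to Fos and genes overlapping a member; a few of these are left out here. GC content and the positions of genes and transcripts came from GENCODE M21, whose transcript lengths differ from the deposited ones for Jund, Zfp36, Junb and Fosb. Intervals cover counting error only, and a count of 0 allows up to 0.145 CPM in library 2 and 0.116 in library 1.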

Additional observations from a re-analysis of the deposited data

How the results depend on the processing

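The main scaling gave 7 genes higher and none lower in library 2 with a median log2 ratio of 1.24, and 7 and none held under total counts of nuclear protein-coding genes, no low-count filter, a minimum mean of 50 counts and a prior count of 5. The median was 1.51 with nuclear protein-coding totals, 2.28 as a ratio of deposited TPM and 1.11 as a ratio of TPM over nuclear protein-coding genes, which shifted the median of all genes by 0.26, 1.06 and -0.07. DESeq2 size factors left 5 higher. With the length trend taken off, 4 were higher at a median of 0.90, against -0.22 for all genes, and Fos (-0.40) and Dusp1 (-0.076) reversed. The share of all genes called was taken for the main scaling and the GC trends only. The counts of calls under the other settings thus have no background beside them.

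With the transcript GC trend taken off, 0 were higher and 6 lower at a median of -1.13. Fos (-0.88), Fosb (-1.48), Jun (-1.68), Jund (-4.80), Egr1 (-1.07), Ier2 (-1.20), Dusp1 (-1.24) and Zfp36 (-0.89) reversed. With the coding GC trend taken off, added after seeing the data, 4 were higher and 6 lower at a median of -1.59, and Fos (-2.62), Fosb (-1.47), Jun (-1.70), Egr1 (-2.06), Dusp1 (-2.40) and Zfp36 (-1.94) reversed. The cause was not tested.

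Leaving out a library gave a summed 127 to 652 TPM, and the posterior mean TPM gave 370.04. No paired analysis was possible because there is 1 group. Depth limits Junb, Fosb and Ier2 most, at 22, 35 and 58 counts in library 1.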
